A study of Arabidopsis thaliana with 6 samples.

Results

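The Aux/IAA repressors and the auxin response factors (ARFs) are the 2 transcription factor families through which a plant cell turns an auxin signal into changes of gene expression. A fixed list of 39 Arabidopsis genes, 24 Aux/IAA and 15 ARF, was looked up by gene identifier in a table of 18368 genes. Of these, 36 had a row there, namely 21 Aux/IAA and all 15 ARF genes, whereas *IAA5* (AT1G15580), *IAA6* (AT1G52830) and *IAA20* (AT2G46990) were not in the table used, so that their expression was not analysed and only their sequences are described. The members are the genes of both families, which were picked with earlier results of these data known.
RNA was sequenced from whole seedlings of wild-type Arabidopsis thaliana (ecotype Col-0, no transgene), in 3 libraries of 4-week-vernalized seedlings (4v) and 3 of non-vernalized seedlings (0v). The 4v seedlings had 7 days at 22 °C and then 28 days at 5 °C. The 0v seedlings had 11 days at 22 °C, and all were on plates with half-strength MS medium. The authors state long days for growth at 22 °C, after the seeds were stratified in the cold. At harvest the 4v seedlings were 35 and the 0v seedlings 11 days old, so that cold and age cannot be told apart. Replicates came from separate plates of 1 genotype, and p-values measure the spread between such plates. Below, a level is a normalized count, that is, the number of reads assigned to a gene divided by the size factor of its library.

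Auxin acts by removing Aux/IAA proteins. In its presence the F-box receptors TIR1 and AFB bind a short stretch of the Aux/IAA protein, the degron, and the protein is marked with ubiquitin and degraded. At low auxin the Aux/IAA proteins sit on ARFs and bring TOPLESS co-repressors to their target genes, which include the Aux/IAA genes themselves, so that many Aux/IAA transcripts are also readouts of the response. ARFs bind DNA at auxin response elements. A glutamine-rich middle region marks those that activate transcription (*ARF5*, *ARF6*, *ARF7*, *ARF8* and *ARF19*), and most others are regarded as repressors.

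The libraries differed widely in depth. Replicate 2 of 4v and replicate 3 of 0v held 23141488 and 20005225 reads, and the other 4 held between 1636687 and 1836717, so each group had 1 deep library and a level of 1 read was worth 0.203 to 3.05 normalized counts in 4v and 0.263 to 3.41 in 0v. Over all 16771 genes tested, 1083 (6.46%) were higher and 1172 (6.99%) were lower in 4v than in 0v at an adjusted p under 0.05 (limma), with a median log2 fold change of 0.05. The groups did not overlap, with all 4v libraries above all 0v libraries, for 20.5% of the genes, and with all of them below for 18.7%.

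The sequence on which auxin acts is shown first, because it divides the Aux/IAA family into genes whose products can and cannot be expected to carry it. The degron core is glycine, tryptophan, proline, proline and then valine or isoleucine. Coding sequences in the RefSeq annotation of TAIR10.1 encoded this core in 21 of the 24 genes, with valine at the end in 16 and isoleucine in 5, and in 18 different codon spellings. *IAA20* and *IAA30* had no such core, and *IAA10* had the first 4 residues followed by leucine. The stretches below belong to the 5 Aux/IAA genes that passed the test and to *IAA3*, the closest relative of *IAA4*, read 5′ to 3′ on the coding strand with the 5 core codons in capitals.
IAA16: gttgtgGGATGGCCACCGGTAcgatctttc
IAA2: atcgttGGTTGGCCACCAGTGagatcttcc
IAA4: attgttGGATGGCCACCAGTTagatcttac
IAA3: attgttGGATGGCCACCAGTTagatcttac
IAA27: gtggtgGGATGGCCACCAATAagatcattc
IAA12: gtggtaGGATGGCCACCAATTgggttacac
They lie in coding exons at chr3:1289727-1289756 (*IAA16*, minus strand), chr3:8181384-8181413 (*IAA2*, minus), chr5:17550743-17550772 (*IAA4*, plus), chr1:1129016-1129045 (*IAA3*, minus), chr4:14324651-14324680 (*IAA27*, minus) and chr1:1241061-1241090 (*IAA12*, plus). The stretches of *IAA4* and *IAA3* are identical. In this set the 3 genes that fell in 4v have a core ending in valine and the 2 that rose have one ending in isoleucine. The other 3 isoleucine genes, *IAA8*, *IAA11* and *IAA13*, did not pass the test, with log2 fold changes of -0.47, -0.11 and -0.17. Those valine genes that were tested and did not pass lay on both sides of 0, from -0.88 (*IAA19*) to 0.59 (*IAA28*). A link between the last residue and direction was not tested.

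Aux/IAA genes moved in both directions. Of the 20 tested, 2 were higher in 4v (10%, against 6.46% of all genes), 3 were lower (15%, against 6.99%) and 15 did not pass. The family's median log2 fold change was -0.12, beside 0.05 over all genes. The groups did not overlap for 10 genes, with 4v above 0v for 5 (*IAA10*, *IAA12*, *IAA14*, *IAA27* and *IAA28*) and below for 5 (*IAA2*, *IAA4*, *IAA16*, *IAA18* and *IAA19*), a share of 5 in 20 each way beside 20.5% and 18.7% of all genes.

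*IAA16* (AT3G04730, chromosome 3, 1288155 to 1290891), a repressor that dampens auxin responses through much of the plant, fell most within the family. It had 959, 727 and 872 normalized counts in 4v replicates 1 to 3, against 2792, 1794 and 2002 in 0v. Every 4v library was far below the lowest 0v library. The log2 fold change was -1.34 (SE 0.20, adjusted p = 0.0098, n = 3 each), on 307 to 3588 reads per 4v library and 556 to 7608 per 0v library. It passed in all 15 alternative settings and in all 6 fits that left out 1 library.

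*IAA2* (AT3G23030, chromosome 3, 8180646 to 8182095) is an auxin-induced gene widely used as a readout of the response. It had 472, 561 and 539 normalized counts in 4v, against 1034, 907 and 1765 in 0v. The groups did not overlap, and the deep 0v library stood well above the other 0v libraries. The log2 fold change was -1.17 (SE 0.25, adjusted p = 0.0264). *IAA4* (AT5G43700, chromosome 5, 17550179 to 17551715), another auxin-induced repressor, had 344, 295 and 423 normalized counts in 4v, against 628, 561 and 842 in 0v, again with the deep 0v library highest and no overlap. Its log2 fold change was -0.92 (SE 0.21, adjusted p = 0.0291). Neither call held in each fit that left out 1 library. *IAA2* and *IAA4* both lost it without 0v replicate 1 or without any one of the 3 4v replicates, with values of -1.36 to -0.88 for *IAA2* (adjusted p up to 0.0995) and -1.06 to -0.76 for *IAA4* (adjusted p up to 0.101).

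*IAA27* (AT4G29080, chromosome 4, 14323296 to 14325361), a repressor also known as PAP2, rose most. Its levels were 183, 221 and 196 normalized counts in 4v, against 54.6, 54.8 and 59.2 in 0v. Replicates lay close together in both groups, and the gap between the groups was several times their spread. The log2 fold change was 1.76 (SE 0.17, adjusted p = 0.00285), on 60 to 1091 reads per 4v library and 16 to 225 per 0v library, and it passed in all 15 alternatives and all 6 fits without 1 library. Its transcript shares 0.783% of its 31-base words with the gene on the opposite strand, AT4G29070.

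*IAA12* (AT1G04550, chromosome 1, 1240294 to 1242157), also called BODENLOS and known as the partner of *ARF5* in the embryo and in veins, had 140.1, 128 and 156 normalized counts in 4v, against 85.3, 74.2 and 58.2 in 0v. No 4v library was as low as any 0v library. The log2 fold change was 0.94 (SE 0.21, adjusted p = 0.0285), on only 23 and 25 reads in the 2 shallow 0v libraries. The call was lost without 0v replicate 2 or without any one 4v replicate (0.80 to 1.06, adjusted p up to 0.102). *ARF5* itself was at 0, 38.3 and 17.04 normalized counts in 4v and at 0, 0 and 17.6 in 0v, which is too few reads for a comparison of the pair.

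**Figure D1:**
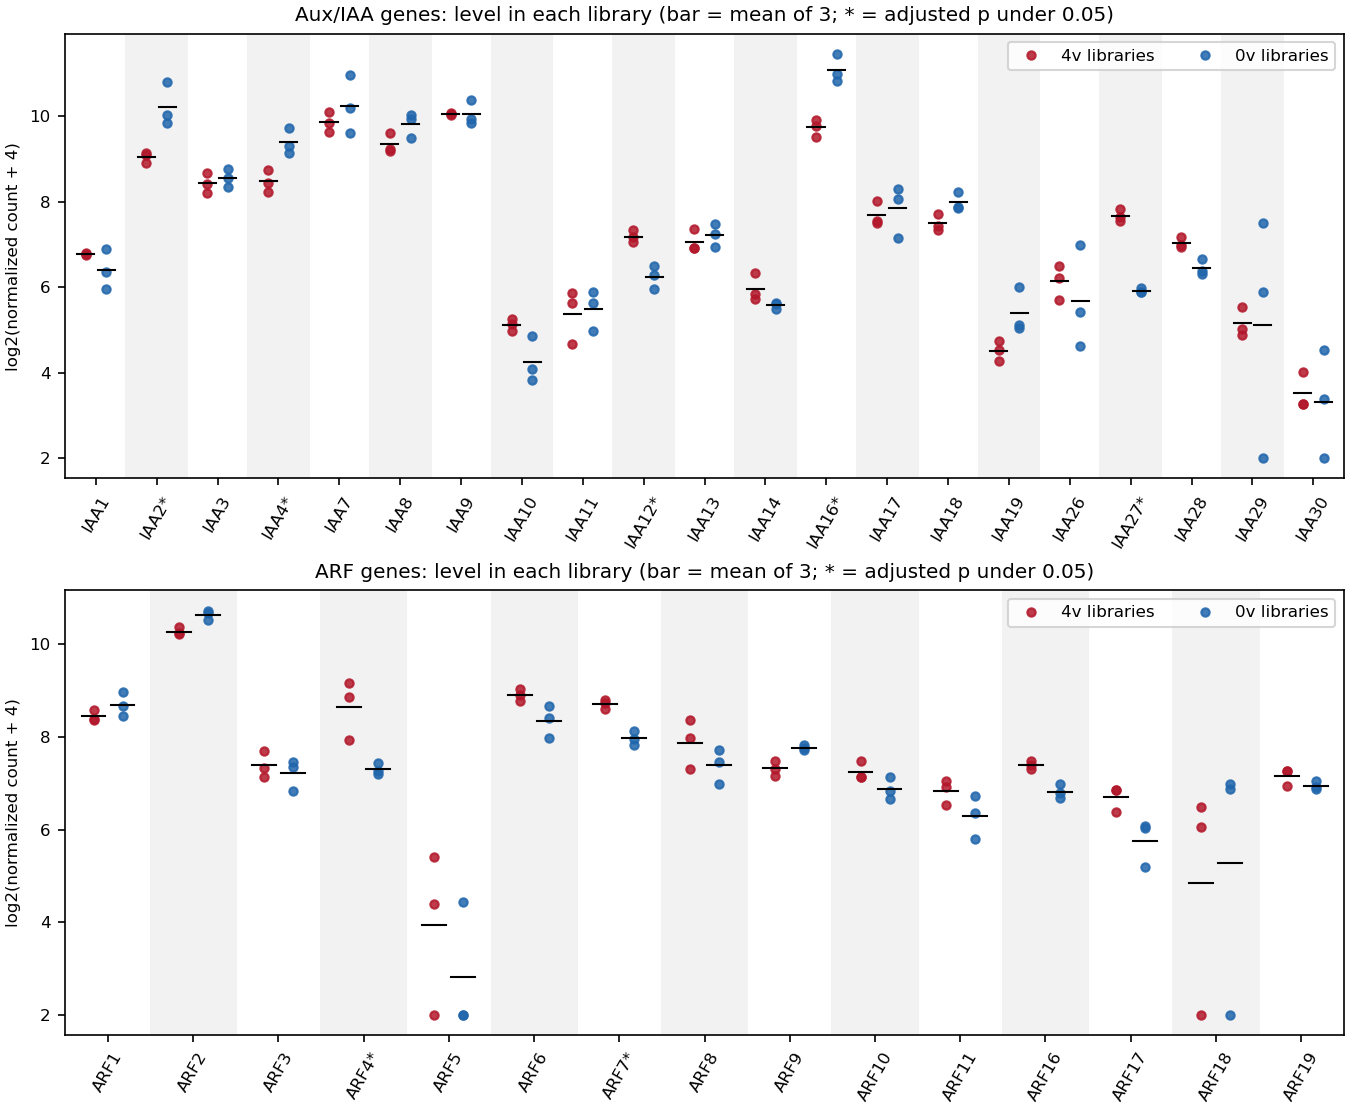
Level of each Aux/IAA gene (upper panel) and ARF gene (lower panel) in every library, as log2(normalized count + 4) on the y axis, with 4v in red left of 0v in blue, 1 point per library, a bar at the mean of 3 and an asterisk on genes with an adjusted p under 0.05. *IAA27* and *ARF7* stand above and *IAA16* below their 0v levels with no overlap, whereas *IAA29*, *IAA30*, *ARF5* and *ARF18* have libraries at 0.

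Among the Aux/IAA genes that did not pass, *IAA7* (AXR2), a regulator of shoot and root growth, had 1084, 787 and 909 normalized counts in 4v, against 1161, 771 and 1973 in 0v. Its groups overlapped, and the deep 0v library alone was far above the rest. *IAA17* (AXR3) had 183, 177 and 253 in 4v against 311, 265 and 138 in 0v. *IAA3* (SHY2), the twin of *IAA4* in degron sequence, had 402, 290.4 and 335 in 4v against 430.1, 319 and 368 in 0v, with a log2 fold change of -0.12 (95% interval -0.54 to 0.30). The estimate of *IAA4* lay outside that interval, but its own 95% interval (-1.40 to -0.44) overlapped it. The difference between both genes was not tested. Reads of *IAA3* cannot be told apart fully from those of AT1G04230 on the opposite strand, with which it shares most of the 37.3% of its 31-base words that are found elsewhere.

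*IAA14* (SLR), which restrains lateral root initiation, had 48.7, 53.3 and 76.7 normalized counts in 4v, against 44.4, 45.2 and 41.1 in 0v, and its log2 fold change of 0.40 (95% interval -0.21 to 0.998) did not pass. *IAA28*, another regulator of lateral roots, had 140.1, 123 and 119 in 4v, against 75.1, 96.8 and 78.4 in 0v (0.59, SE 0.19, adjusted p = 0.0768). *IAA18* pointed the other way, with 158, 169 and 204 in 4v against 297, 226 and 232 in 0v (-0.49, SE 0.18, adjusted p = 0.11). These 3 genes kept their groups apart without passing over all genes.

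*IAA19* (MSG2), which acts in hypocotyl bending and growth, had 15.2, 19.1 and 22.7 normalized counts in 4v, against 30.7, 29.04 and 59.996 in 0v (-0.88, SE 0.38, adjusted p = 0.16). *IAA8* (-0.47, adjusted p = 0.141) and *IAA9* (-0.00) are a pair of long, broadly expressed members, and the 4v libraries of *IAA9* lay close together, at 1041, 1070.0 and 1059 normalized counts, against 976, 910 and 1329 in 0v. *IAA1*, *IAA11*, *IAA13* and *IAA26* had log2 fold changes between -0.17 and 0.47 with adjusted p from 0.351 to 0.875. Of the 31-base words of *IAA13*, 34.3% are found in other genes, among them AT2G33300 on the opposite strand. Low members were not resolved at this depth. *IAA10* had 27.4, 33.8 and 31.2 in 4v against 10.2, 12.9 and 24.7 in 0v (0.87, adjusted p = 0.177), where 23.9% of its 31-base words are shared with the opposite-strand gene AT1G04105. *IAA29*, an auxin- and shade-induced gene, had 42.6, 25.5 and 28.4 in 4v against 54.6, 0 and 176 in 0v. *IAA30*, one of the genes with no degron core, averaged under the minimum of 10 normalized counts and was not tested, at 12.2, 5.67 and 5.68 in 4v against 0, 6.45 and 18.9 in 0v.

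**Figure D2:**
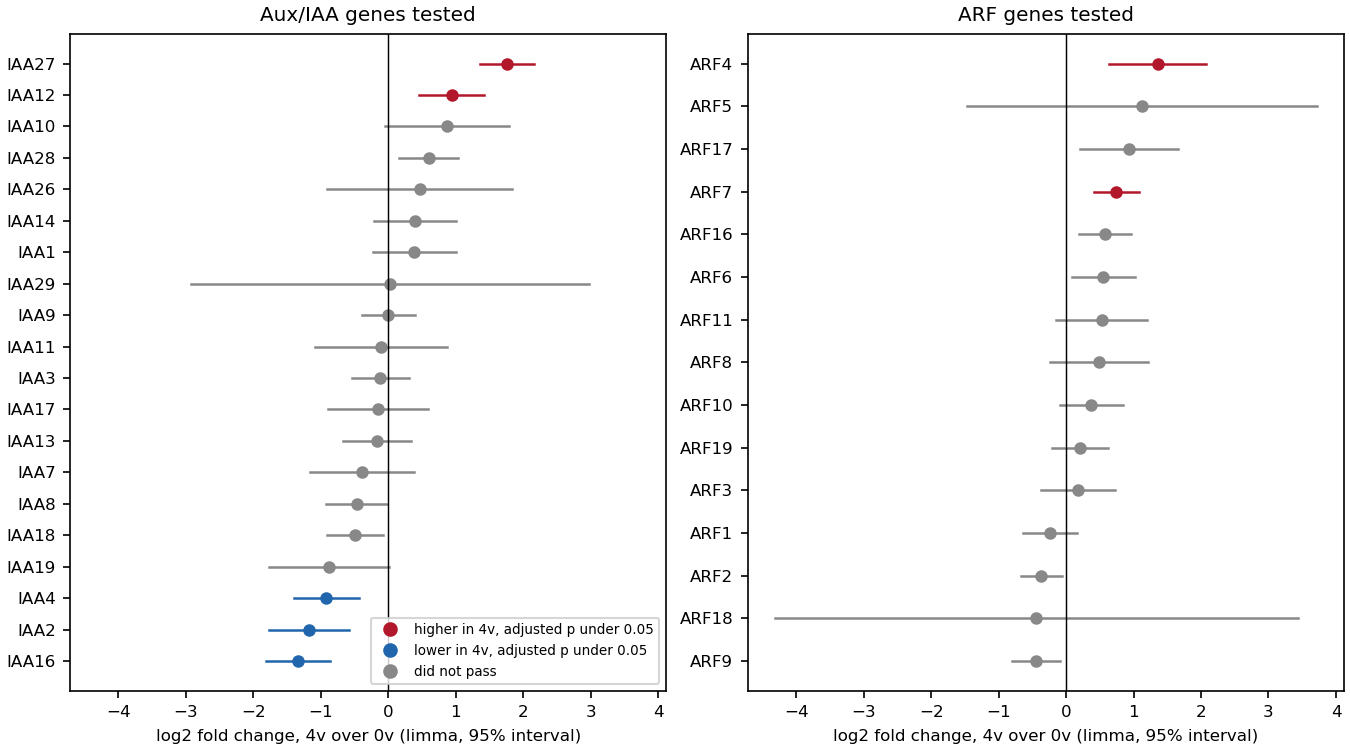
Log2 fold change (4v over 0v) of each tested gene with its 95% interval from limma on the x axis, Aux/IAA genes on the left and ARF genes on the right, ordered by fold change, in red where higher and in blue where lower at an adjusted p under 0.05. Aux/IAA genes extend from -1.34 (*IAA16*) to 1.76 (*IAA27*), and 11 of 15 ARF genes lie right of 0, beside 8846 of all 16771 genes.

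Because few of the family's genes supply most of its transcripts, levels were also set against transcript length, as normalized counts per kb of the longest annotated transcript. Per kb, *IAA7* was highest in 4v at 600.5 ± 96.8 (SD, n = 3), followed by *IAA9* at 542 ± 7.39 and *IAA16* at 421 ± 57.9. In 0v the order was *IAA16* at 1084 ± 260.1, *IAA2* at 910 ± 341 and *IAA7* at 844 ± 398, whose ranges overlap. *IAA27* ranked number 9 of 21 in 4v and number 16 in 0v. *IAA16* made up 11.98%, 10.18% and 11.03% of the family's per-kb level in 4v replicates 1 to 3, against 24.8%, 19.4% and 15.2% in 0v.

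The summed per-kb level of the 21 Aux/IAA genes was 3955, 3527 and 3902 in 4v, against 5567, 4558 and 6522 in 0v. No 4v library was as high as the lowest 0v library. Without the 3 genes called lower (*IAA2*, *IAA4* and *IAA16*), a set picked by the same values, the groups overlapped. The sum of the other 18 was then 2879.5, 2537 and 2762 in 4v, against 2963, 2591 and 3612 in 0v. The sum of the 15 ARF genes was 1260, 1317 and 1147 in 4v, against 1139, 1043 and 1222 in 0v, with overlap. The ratio of the Aux/IAA sum to the ARF sum was 3.14, 2.68 and 3.401 in 4v, against 4.89, 4.37 and 5.34 in 0v, or 3.07 ± 0.365 and 4.87 ± 0.484 (SD, n = 3 each). Sums were not tested, as the members were listed with earlier results of these data known.

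**Figure D3:**
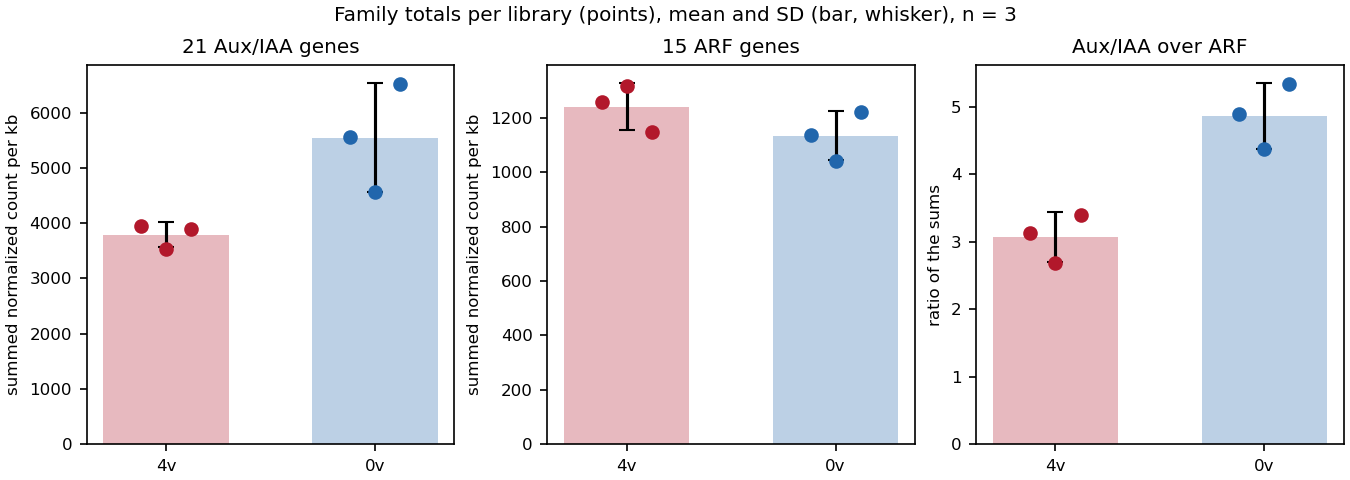
Summed normalized counts per kb of transcript for 21 Aux/IAA genes (left) and 15 ARF genes (middle), and the ratio of these sums (right), in 4v (red) and 0v (blue), with 1 point per library, bars at the mean and whiskers of 1 SD. The Aux/IAA sums and the ratios do not overlap between the groups, and the ARF sums do. Without the 3 Aux/IAA genes called lower, the Aux/IAA sums overlap as well.

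Most ARF genes had values above 0, but few passed the test. Of the 15 tested, 2 were higher (13.3%, against 6.46% of all genes), 0 were lower (against 6.99%) and 13 did not pass. An unadjusted p under 0.05 (limma) was found for 7 of the 15, beside 5374 of all 16771 genes. With no gene lower in limma, edgeR on the recovered reads also called 0, and voom and DESeq2 called 1 each. The median log2 fold change was 0.49, beside 0.05 over all genes, and 11 genes had positive and 4 negative values. These include *ARF5* (1.12) and *ARF18* (-0.44), which were at 0 in some libraries and are not resolved. Over all 16771 genes, 8846 values were positive and 7925 negative. The groups did not overlap with 4v above for 5 genes (*ARF4*, *ARF6*, *ARF7*, *ARF16* and *ARF17*, beside 20.5% of all genes) and with 4v below for 2 (*ARF2* and *ARF9*, beside 18.7%).

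*ARF7* (AT5G20730, chromosome 5, 7016445 to 7022179), also known as NPH4, is an activator that serves tropic growth and, together with *ARF19*, lateral root formation. It had 442, 423 and 383 normalized counts in 4v, against 242, 223 and 276 in 0v. The lowest 4v library was well above the highest 0v library. The log2 fold change was 0.75 (SE 0.14, adjusted p = 0.0197), on 135 to 2086 reads per 4v library and 69 to 1049 per 0v library. The direction was kept without each library (0.67 to 0.83), but the call was lost without any one library other than 0v replicate 3 (adjusted p up to 0.0794). *ARF19*, its closest relative, had 149, 118 and 151 in 4v against 113, 129 and 117 in 0v, a log2 fold change of 0.21 (95% interval -0.20 to 0.62). The difference between this pair was not tested.

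The remaining activators had positive values that did not pass. *ARF6*, which acts with *ARF8* in flower maturation and hypocotyl growth, had 518, 432 and 474 normalized counts in 4v, against 246, 335 and 402 in 0v (0.55, SE 0.20, adjusted p = 0.11). *ARF8* had 247, 325 and 153 in 4v against 205, 171 and 123 in 0v (0.49, adjusted p = 0.314), so that its groups overlapped. *ARF5*, or MONOPTEROS, needed for the embryonic root and for veins, was listed at 0 in 1 4v library and 2 0v libraries, all of them shallow. Apart from *ARF5*, which these reads do not resolve, the 4 other activators had values above 0 (beside 8846 of all 16771 genes). Of them, 1 passed as higher (beside 6.46% of all genes). The share of glutamine codons in the coding sequence was 6.98% to 15.3% in these 5 genes and 2.24% to 5.98% in the other 10, with *ARF7* highest.

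*ARF4* (AT5G60450, chromosome 5, 24308255 to 24312784), a repressor that acts with *ARF3* in giving leaves their lower side, had 566, 462 and 241 normalized counts in 4v, against 143, 148 and 169 in 0v. All 4v libraries were above all 0v libraries, but 4v replicate 3 was far below replicate 1. The log2 fold change was 1.36 (SE 0.31, adjusted p = 0.0303), and the call was lost without 0v replicate 1 or 2 or 4v replicate 1 or 2 (1.11 to 1.71, adjusted p up to 0.101). *ARF4* held 13.8%, 10.7% and 6.44% of the family's per-kb level in 4v, against 3.85%, 4.35% and 4.23% in 0v. *ARF3*, or ETTIN, had 137, 203 and 156 normalized counts in 4v against 171, 158 and 111 in 0v (0.18, adjusted p = 0.639).

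*ARF2*, a repressor of cell division and organ growth, was the most abundant ARF per kb in both groups, at 322 ± 18.1 in 4v and 415 ± 29.7 in 0v (SD, n = 3 each). It had 1182, 1312 and 1207 normalized counts in 4v, against 1628, 1465 and 1684 in 0v, without overlap (-0.37, SE 0.13, adjusted p = 0.101). *ARF9* also lay lower without overlap, at 155, 139 and 173 in 4v against 205, 223 and 212 in 0v (-0.45, SE 0.15, adjusted p = 0.0937). These are the members that voom (*ARF9*, adjusted p = 0.0343) and DESeq2 (*ARF2*, adjusted p = 0.047) called on recovered reads. *ARF1*, second per kb in both groups, had -0.24 (adjusted p = 0.373), and *ARF11* had 0.53 (adjusted p = 0.2485). *ARF18* was listed at 85.3, 62.4 and 0 in 4v and at 113, 0 and 123 in 0v, a pattern of zeros beside high values that leaves its fold change without meaning.

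Several ARF transcripts are cut by small RNAs, and the sites are shown because they define a shared layer of control that was not measured here, small RNAs being lost in libraries of polyadenylated RNA. The microRNAs are given with the seed (bases 2 to 8) in capitals, and the sites with the bases that form a Watson-Crick pair with miR160a or miR167a in capitals.
miR160a: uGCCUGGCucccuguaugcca
ARF10 site: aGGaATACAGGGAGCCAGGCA
ARF16 site: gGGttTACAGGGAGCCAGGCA
ARF17 site: TGGCATgCAGGGAGCCAGGCA
miR167a: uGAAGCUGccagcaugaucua
ARF6 site: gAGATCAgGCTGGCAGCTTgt
ARF8 site: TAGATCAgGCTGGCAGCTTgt
All 5 sites are in coding exons of TAIR10.1, at chr2:12115741-12115761 (*ARF10*, plus strand), chr4:14704141-14704161 (*ARF16*, minus), chr1:29274189-29274209 (*ARF17*, plus), chr1:10686478-10686498 (*ARF6*, minus) and chr5:14633841-14633861 (*ARF8*, plus). miR160a, miR160b and miR160c had the same mature sequence. The miR160 sites left 1 to 3 bases without a Watson-Crick pair and those of miR167a 3 and 4. The best stretch in any other listed gene left at least 8 and 7 such bases. Bases that face each other as G and U were counted among them, such as the lower-case base of the *ARF17* site.

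The 3 miR160 targets all had values above 0 (beside 8846 of all 16771 genes), with a median of 0.57. None of the 3 passed (beside 6.46% of all genes higher and 6.99% lower). *ARF16* and *ARF10*, which act in the root cap, differed in how far their groups stood apart. *ARF16* had 155, 163 and 173 normalized counts in 4v, against 99.0, 107 and 123 in 0v (0.57, SE 0.16, adjusted p = 0.0616). *ARF17* had 79.2, 112 and 111 in 4v, against 61.4, 32.3 and 63.2 in 0v (0.93, SE 0.31, adjusted p = 0.0874), and *ARF10* had 137, 174 and 136 in 4v against 137, 96.8 and 110.3 in 0v (0.37, adjusted p = 0.243). Of the targets of miR167, *ARF6* and *ARF8*, 0 of 2 passed, beside the same shares of all genes. The transcripts of *ARF2*, *ARF3* and *ARF4* are known targets of the trans-acting small RNA tasiR-ARF. Of these 3 genes, 1 passed as higher (beside 6.46% of all genes) and 0 as lower (beside 6.99%).

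The 300 bases around each annotated start, 250 before it to 50 after it, were searched on both strands for the auxin response element TGTCTC and for TGTCGG, a variant bound more tightly by ARFs in vitro. Of the members in the table, TGTCTC stood in the windows of 5 of 21 Aux/IAA genes (23.8%) and 1 of 15 ARF genes (6.67%), beside 13.4% of the 18306 table genes searched. TGTCGG stood in 5 of 21 Aux/IAA windows (23.8%) and 2 ARF windows (13.3%), beside 5.71%. Of the 3 Aux/IAA genes not in the table, *IAA5* had both elements and *IAA6* and *IAA20* had TGTCTC. Of the 7 members that passed the test, *IAA16*, *IAA27*, *IAA12* and *ARF7* had 1 TGTCGG each and no TGTCTC, and *IAA2*, *IAA4* and *ARF4* had neither. The stretches that hold it are given with the element in capitals, read along the gene's strand. In *IAA16* it lies on the opposite strand and reads as CCGACA.
IAA16 promoter: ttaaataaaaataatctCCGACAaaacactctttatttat
IAA27 promoter: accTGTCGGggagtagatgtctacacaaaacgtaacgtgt
IAA12 promoter: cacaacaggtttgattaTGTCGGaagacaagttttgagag
ARF7 promoter: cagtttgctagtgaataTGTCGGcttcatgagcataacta
They lie at chr3:1291032-1291071, chr4:14325572-14325611, chr1:1240239-1240278 and chr5:7022199-7022238 of TAIR10.1. The element thus stood before 1 gene that fell and 3 that rose. *IAA19* had 3 copies of TGTCTC, the most in the list, and did not pass.

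Aux/IAA genes also stand in head-to-head neighbour pairs that arose by ancient duplication, and in each pair no protein-coding gene lies between the partners. *IAA2* and *IAA7* on chromosome 3 are 12510 bases apart, *IAA1* and *IAA14* on chromosome 4 are 10732 bases apart, and *IAA3* and *IAA17* on chromosome 1 are 6388 bases apart. In the pair on chromosome 3, *IAA2* passed (-1.17) and *IAA7* did not (-0.39, 95% interval -1.17 to 0.38), with intervals that overlap. *IAA1* and *IAA14* had 0.39 and 0.40, and *IAA3* and *IAA17* had -0.12 and -0.16, with none of the 4 passing. Differences within pairs were not tested.

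Upstream of both families, the receptor *TIR1* had 426, 362 and 417 normalized counts in 4v, against 549.6, 587 and 573 in 0v (-0.50, SE 0.13, adjusted p = 0.0444). *AFB1*, a receptor of fast responses in roots, had 195, 139 and 213 in 4v against 304, 294 and 357 in 0v (-0.81, SE 0.20, adjusted p = 0.0388). Both fell, and the groups did not overlap for either. The other 7 of 9 genes of receptors and their ubiquitin ligase did not pass. Thus 0 were higher (beside 6.46% of all genes) and 2 lower (22.2%, beside 6.99%). Among 5 TOPLESS co-repressor genes, 1 was higher (20%, beside 6.46% of all genes) and 0 lower (beside 6.99%). *TPR2* had 536, 518 and 554 in 4v, against 317, 348 and 392 in 0v (0.60, SE 0.13, adjusted p = 0.0289).

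Downstream, the early auxin-induced SAUR genes, which promote cell expansion, included many genes that were lower in 4v. Of 18 listed, 17 were in the table and 14 were tested. Of these, 8 were lower (57.1%, beside 6.99% of all genes) and 0 higher (beside 6.46%) in 4v, with a median log2 fold change of -1.99. The 8 lower genes had only 0 to 8 reads in each shallow 4v library. *SAUR21* had 3.05, 13.2 and 5.68 normalized counts in 4v, against 106, 83.9 and 64.2 in 0v (-3.04, SE 0.43, adjusted p = 0.0078). *SAUR22* had 6.09, 10.3 and 8.52 in 4v, against 54.6, 54.8 and 64.7 in 0v (-2.34, SE 0.33, adjusted p = 0.00758). *SAUR19* (-2.95, adjusted p = 0.0147) and *SAUR20* (-2.88, adjusted p = 0.0214) lie in the same tandem cluster of near-identical copies, so that reads may be split among them. The remaining lower genes, *SAUR62*, *SAUR63*, *SAUR65* and *SAUR66*, also lie close together, on chromosome 1 at 10302585 to 10321978. Genes of 1 cluster are not separate observations.

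Of 5 tested GH3 genes, whose enzymes conjugate auxin to amino acids, 1 was lower (20%, beside 6.99% of all genes). *GH3.6* had 341, 229.8 and 241 normalized counts in 4v, against 894, 865 and 725 in 0v (-1.62, SE 0.19, adjusted p = 0.00478). Of 7 tested synthesis genes, all had values below 0 (beside 7925 of all 16771 genes) and 1 passed as lower (14.3%, beside 6.99%). This was the flavin monooxygenase gene *YUC2*, at 0, 4.86 and 0 in 4v against 37.5, 19.4 and 40.8 in 0v. Of 14 transport genes, 2 were higher (14.3%, beside 6.46% of all genes) and 0 lower (beside 6.99%). *PID*, a kinase that directs PIN transporters, had 107, 54.3 and 62.5 in 4v against 23.9, 12.9 and 29.5 in 0v (1.59, SE 0.39, adjusted p = 0.0387). *ABCB4* had 128, 48.2 and 59.6 in 4v and was listed at 0 in all 3 0v libraries, the deep one included. Its call, 1 of the 2, rests on a gene without a read in 0v, and the size of its fold change has no meaning. The single LBD gene tested, *LBD16*, and both *DAO* genes did not pass.

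**Figure D4:**
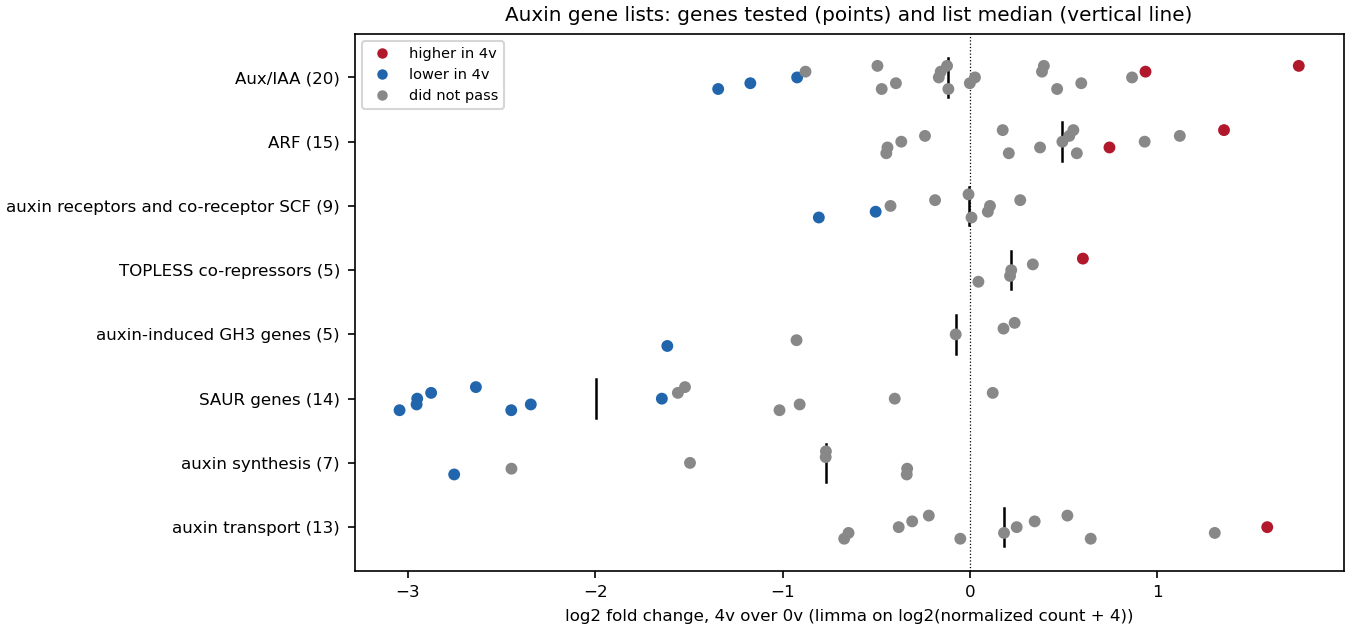
Log2 fold change (4v over 0v) of each tested gene of 8 auxin gene lists on the x axis, 1 row per list with the number of genes plotted, the list median as a vertical line, and genes past an adjusted p of 0.05 in red (higher in 4v) or blue (lower in 4v). SAUR genes have the lowest median at -1.99 and ARF genes the highest at 0.49, and *ABCB4* is left out because its 0v libraries are at 0.

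Some cell type markers differed between the groups. Of 5 vascular markers 1 was higher (20%, beside 6.46% of all genes). This was *SUC2*, the phloem sucrose carrier (1.31, adjusted p = 0.0319), which had 265, 219 and 352 normalized counts in 4v, against 106, 158 and 75.3 in 0v. The list summed to 484, 354 and 534 in 4v, against 184, 306 and 167.4 in 0v, without overlap, and *SUC2* was its most abundant gene. The xylem genes *XCP1* (-1.40) and *IRX3* (0.11) did not pass, and neither did *APL* (1.39) and *ATHB-8* (0.98). *STM*, a shoot meristem gene, had 113, 104 and 114 in 4v against 58.0, 54.8 and 47.1 in 0v (0.99, adjusted p = 0.0197), while *CUC2* had 12.2, 5.47 and 0 in 4v against 0, 3.23 and 2.11 in 0v and was not tested. Of 5 tested root markers 0 passed and 2 had an unadjusted p under 0.05 (limma), beside 5374 of all 16771 genes. All 4v libraries lay below all 0v libraries for *CASP1* (-1.28, adjusted p = 0.0616) and *CASP2* (-1.43, adjusted p = 0.0598), both of the endodermis. This held for 18.7% of all genes. For *SCR* (0.41, adjusted p = 0.161) all 4v libraries lay above all 0v libraries, as for 20.5% of all genes. The 9 root markers in the table summed to 542, 406 and 463 in 4v, against 546, 616 and 399 in 0v. Among 6 leaf photosynthesis genes 1 was lower (16.7%, beside 6.99% of all genes), *LHCA3* (-1.32, adjusted p = 0.0265), and the list median was -0.94. For 4 of them (*LHB1B2*, *LHCA3*, *LHCB5* and *PSBO1*) every 4v library was below every 0v library, beside 18.7% of all genes. With *CAB2* (0.60) and *RBCS1A* (-0.13), whose groups overlapped, they summed to 263948, 204612 and 328011 in 4v, against 494367, 365918 and 266251 in 0v, with overlap. Whether a changed share of such cells had a part in the members' results was not tested, and in whole seedlings fewer cells of a type and less RNA per cell cannot be told apart.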

How the data were processed

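Polyadenylated RNA libraries of Arabidopsis Col-0 seedlings, 3 of 4v and 3 of 0v, were analysed, with groups and replicate numbers taken from the labels. The authors made TruSeq mRNA libraries, sequenced pairs of 75 bases, assigned reads to TAIR10 transcripts with kallisto and scaled counts with DESeq2. Their versions and strand settings are not given in the sources used here. Per library, the authors divided each count by 1 size factor, and this signal is what they deposited. Dividing by the value of 1 read gave whole reads for 100.0% of 100818 values of up to 1000 reads (tolerance 0.05 read). The deposited table also holds the authors' own fold changes and p-values, which were not used, and 20 columns without a sample name were not used. Of 18369 genes, 1 with displaced values was left out.

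The main test was limma 3.58.1 in R 4.3.3 (lmFit, eBayes with trend, two-sided) on log2(normalized count + 4). It took in the 16771 genes averaging 10 or more, and p-values were adjusted over all of them by the Benjamini-Hochberg method (threshold 0.05). Fold changes are on that scale and understate those of low genes. Error terms and intervals are those of the fit. The test was checked on simulated data. The settings varied were the pseudocount (1, 16), the filter (none, 50), a replicate block, quantile and TMM scaling, no trend, array weights, voom, edgeR 4.0.16 and DESeq2 1.42.0 on recovered reads, thinning to 1636687 reads, the 4 shallow libraries alone, depth class as a covariate, and leaving out each library.

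All members were accounted for. Values in every library were given for members that passed and for those a class needed, and of other auxin lists for at most 4 members that passed with the smallest adjusted p; other genes of those lists and marker genes that did not pass were named after their values were seen. Members and lists were chosen with earlier results of these data known. Sequences, lengths and overlaps come from the RefSeq annotation of TAIR10.1, whose coordinates equalled those of the table for 18306 of 18307 matched genes. A 31-base word, the usual k-mer of kallisto, was called shared if it occurred in a transcript of another gene on either strand.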

Additional observations from a re-analysis of the deposited data

How the results depend on the processing

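*IAA16* and *IAA27* kept their calls in all 15 alternatives and without each library. Higher Aux/IAA genes numbered 2, and 1 with the replicate block and with the 4 shallow libraries alone, and 3 with voom (1 to 2 without 1 library). Lower Aux/IAA genes numbered 3, 1 without trend, 2 with the 4 shallow libraries alone, where *IAA4* lost its call (-0.63, adjusted p = 0.0731), and 4 with voom (1 to 4 without 1 library). Higher ARF genes numbered 2, and 0 with the replicate block, 1 without trend, 1 with the 4 shallow libraries alone, and 3 with a filter at 50, with array weights and with voom (0 to 4 without 1 library; without 0v replicate 3, *ARF6* and *ARF16* also passed). Lower ARF genes numbered 0, and 1 with voom and with DESeq2. Over all genes the 1083 higher and 1172 lower became 2498 and 2318 with voom, 481 and 567 with the replicate block, and 260 to 1521 and 400 to 1440 without 1 library, the lowest without 4v replicate 1 and the highest without 0v replicate 3. Same-numbered libraries did not deviate together (correlations 0.065, -0.131 and -0.132), so the numbers were not taken as pairs. The largest correlation between a 4v and a 0v library, 0.271, was that of 4v replicate 2 with 0v replicate 3, both of them deep. The block ended the calls of *IAA12* (adjusted p = 0.0797), *ARF4* (0.0655) and *ARF7* (0.0666). The cause of these changes was not tested.

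The sign turned only for 9 members that did not pass in the main test: *IAA7*, *IAA9*, *IAA11*, *IAA13*, *IAA17*, *IAA26*, *IAA29*, *ARF3* and *ARF18*. With the 4 shallow libraries alone the log2 fold change was 0.0688 for *IAA7*, 0.16 for *IAA9*, 0.0262 for *IAA13* and -0.16 for *ARF3*. *IAA9* had 0.13 with quantile scaling and 0.0726 with array weights, *ARF18* 0.23 with array weights and *IAA26* -0.29 with voom. *IAA29* had -0.33 with a pseudocount of 16, -0.27 with quantile scaling, -2.22 with voom, -1.45 with edgeR, -1.30 with DESeq2 and -0.0799 with thinned reads. Without 1 library the values ran from -0.11 to 0.16 for *IAA9*, -0.38 to 0.24 for *IAA11*, -0.50 to 0.0735 for *IAA17*, -0.0632 to 1.12 for *IAA26*, -1.53 to 1.21 for *IAA29*, -0.0098 to 0.30 for *ARF3* and -2.08 to 0.98 for *ARF18*. Members with few reads in the 4 shallow libraries, such as *IAA10*, *IAA19*, *IAA30* and *ARF5*, could not be resolved at this depth.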
